A study of Mus musculus with 18 samples.

Results

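The genes described here are Trp53, which encodes the transcription factor p53, and 8 genes whose products act back on p53 or on its regulators: Mdm2, Mdm4, Ppm1d, Ccng1, Rchy1, Rfwd2 (current symbol Cop1), Trp53inp1 and Ptp4a3. They were chosen by name from the RefSeq coding transcripts of 2 long RNA count tables, with 1 transcript kept per gene. Earlier results of these data were known when the choice was made. All 9 were found, of 15248 genes in all, a total that includes non-coding RefSeq transcripts and entries without a symbol. The samples were C57BL/6 mouse embryonic stem (ES) cells deficient in HPRT, a purine salvage enzyme, and both groups carried that deficiency. The cells had been kept on feeder cells and then on gelatin before 3 samples received cisplatin at 2.5 µM, a drug whose platinum atom links DNA bases to each other, and 3 control samples received the solvent DMSO. RNA from these 6 samples was read by mRNA sequencing, which selects poly(A) RNA, and by RNAome sequencing, which reads fragmented total RNA after removal of rRNA, giving 3 libraries per group and assay. How long the cells were exposed is not stated in the sources used here. Nor do the labels say whether the 3 samples of a group were grown apart, so the p-values reflect the spread among these samples, which may be technical.

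p53 is a sequence-specific transcription factor that DNA damage stabilises, mainly through changes to the protein. MDM2 is a ubiquitin ligase that binds p53 and marks it for destruction, and because p53 switches on Mdm2, the pair form a negative feedback loop. Most of the other genes are branches of the same loop: further ligases, a related inhibitor, phosphatases and a cyclin, several of them p53 targets themselves. Trp53inp1 differs in that its product promotes p53 activity. Mouse ES cells are known for holding comparatively abundant p53.

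Counts on tested genes ranged from 9502794 to 14821682 per library in mRNA sequencing, over 14083 genes, and from 4990985 to 19331955 in RNAome sequencing, over 9978 genes. Control replicate 1 (code 8.4.16) was the shallowest RNAome library. The members had 3126 to 31726 counts each over the 6 mRNA libraries but 343 to 4849 over the 6 RNAome libraries, so counting error is larger in the RNAome values. Values are CPM, that is counts scaled to a common library size by the TMM method, fold changes are log2 values of cisplatin over control with their standard error (SE), and adjusted p-values come from edgeR's quasi-likelihood test over all genes tested, with a threshold of 0.05. The labelled cell type was checked by its markers: the 10 ES cell markers listed summed to 4748 to 4954 CPM with cisplatin and 5476 to 5766 CPM in controls in mRNA sequencing, where 7 of 10 fell and 0 rose, by edgeR as well as at an unadjusted p under 0.05 (Esrrb and Zfp42, pluripotency factors, fell by 0.61 and 0.70). Of 14 feeder fibroblast markers 11 were tested there, summing to 788.3 to 938.3 CPM with cisplatin and 1039 to 1124 CPM in controls, mostly from Fn1, which had 659.1 ± 47.2 CPM after cisplatin, against 882.4 ± 25.2 CPM in control libraries. Lum, Dcn and Twist2 were not among the tested genes, and the collagen gene Col1a1 had 23.0 ± 8.78 CPM after cisplatin, against 21.2 ± 4.12 CPM in control libraries (SD, 3 libraries per group). Of the feeder markers 1 rose, Mmp2, and 1 fell, Fn1. Among all genes tested in mRNA sequencing, 18% rose and 19.2% fell. The part of either marker list in the results below was not tested.

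DNA stretches that resemble p53 binding sites are shown first, because p53 is known to drive several of these genes through such sites. A p53 site is built from 2 half-sites of 10 bases, each with a short core, for example CATG. The reference genome (NCBIM37, the assembly of mm9) was searched over each gene and 3000 bases on either side for 2 half-sites with intact cores, 0 to 3 bases apart, and at most 1 mismatch to the p53 half-site consensus, which reads the same on both strands. Such a match is common: 22.8% of 22367 coding genes held at least 1. The stretches below are a selection from genes that cisplatin raised, are written 5′ to 3′ on the gene's strand, and carry the matched half-sites in capitals.
Trp53inp1, chr4:11082239-11082299, plus strand: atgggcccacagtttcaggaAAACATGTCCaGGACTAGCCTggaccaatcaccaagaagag
Ccng1, chr11:40568418-40568477, minus strand: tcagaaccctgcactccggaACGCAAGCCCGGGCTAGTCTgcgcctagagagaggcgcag
Mdm4, chr1:134916852-134916921, minus strand: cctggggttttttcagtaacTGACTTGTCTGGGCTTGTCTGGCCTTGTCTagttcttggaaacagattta
Ptp4a3, chr15:73579913-73579973, plus strand: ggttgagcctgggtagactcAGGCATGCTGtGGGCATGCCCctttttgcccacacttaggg
Mdm2, chr10:117147098-117147205, minus strand: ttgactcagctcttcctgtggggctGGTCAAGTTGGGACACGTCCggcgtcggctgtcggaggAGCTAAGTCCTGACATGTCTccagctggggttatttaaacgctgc

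The Trp53inp1 stretch lies upstream of the gene, with the match 1319 bases before its annotated start, and it was the only match with 0 mismatches among the members. The Ccng1 match lies in an intron, 356 bases into the gene, and has 1 mismatch. In Mdm4 the capitals mark 3 half-sites in a row within an intron, which give 2 overlapping matches of 1 mismatch each, and the Ptp4a3 match is intronic with 1 mismatch. Mdm4 had 2 further intronic matches, 15767 and 31877 bases into the gene, and Trp53inp1 had 1 further match, 9669 bases into the gene and overlapping an annotated exon, each with 1 mismatch and not shown. The Mdm2 stretch comes from the first intron (chr10:117147085-117147607), where the p53-driven promoter of Mdm2 is known to lie. It was found with a looser rule, at most 3 mismatches, no spacer and no condition on the core: 2 matches of 3 mismatches each stood 634 and 672 bases into the gene. Of 16040 coding genes with a first intron at least as long, 13.6% held 1 or more such matches in the 523 bases nearest the second exon, and 0.91% held 2 or more.

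Under the strict rule Mdm2 also had 1 intronic match, 10818 bases into the gene. Among genes of a span within 20% of the member's, a match was held by 17.0% for Trp53inp1, 8.18% for Ccng1, 27.7% for Mdm4, 27.9% for Ptp4a3 and 20.2% for Mdm2. Trp53, Ppm1d and Rchy1 had 0 matches in their windows, which says only that these letters are not there. Rfwd2, a gene that was lower after cisplatin, had 1 intronic match, as did 54.2% of genes of its long span. These matches are descriptions of the sequence, since no binding was measured.

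In mRNA sequencing, 7 of 9 members rose after cisplatin and 1 fell, while the transcript of p53 itself did not pass the test. Among all 14083 genes tested, 18% rose and 19.2% fell. Because the members were chosen with earlier results of these data known, the comparison with these shares is not an independent test. The median log2 fold change was 0.78 over the 9 members and 0.01 over all genes. In such bulk samples, fewer cells that express a gene and less RNA per cell cannot be told apart. The 3 cisplatin values and the 3 control values did not overlap for any of the 9 members, Trp53 included, nor for 48.7% of all 14083 genes. Every one of these calls was kept under every alternative run, and the members' fold changes are given below by role.

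**Figure D1:**
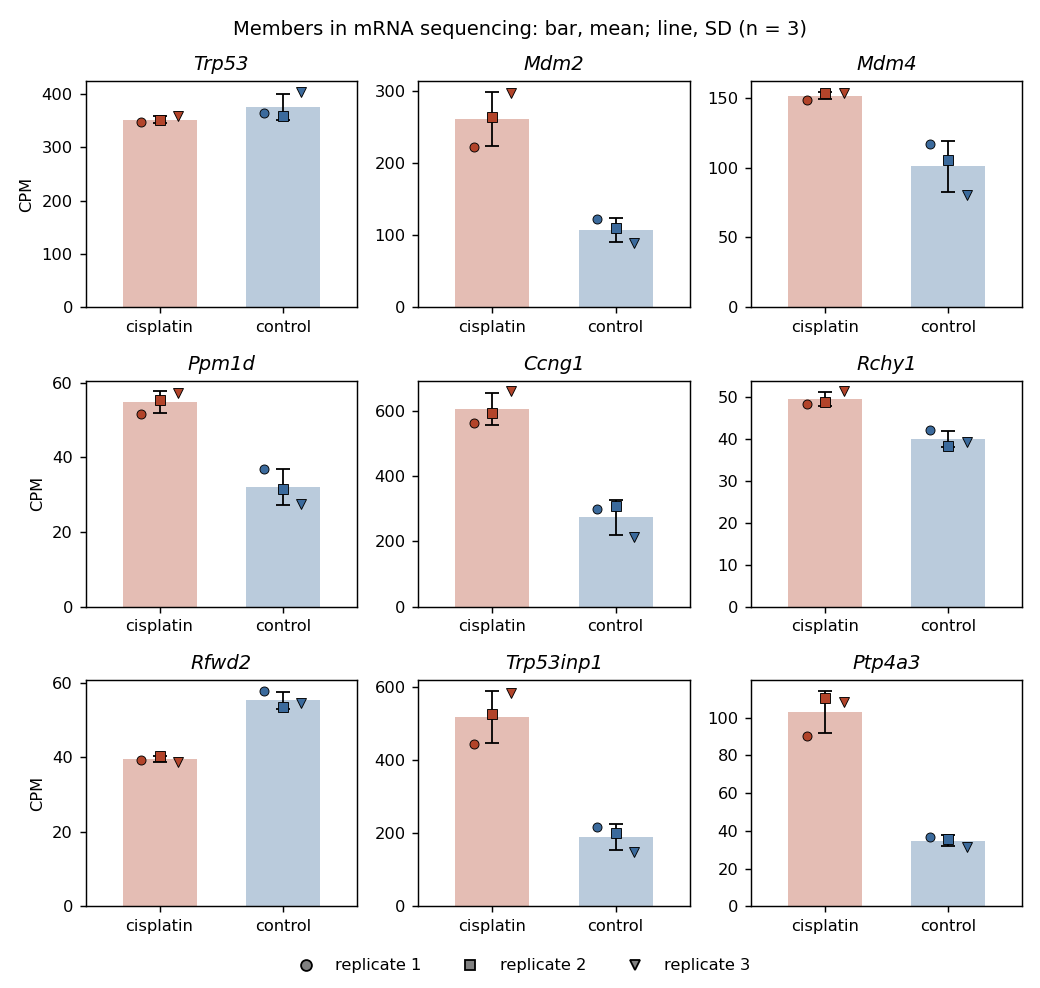
CPM of the 9 members in each mRNA sequencing library, with cisplatin in red on the left and control in blue on the right of each panel; bars are means, lines the SD of 3 libraries and symbols the replicates. Mdm2, Ccng1, Trp53inp1 and Ptp4a3 stand at more than double the control mean, Rfwd2 stands below it, and Trp53 differs by little.

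Trp53 (NM_001127233, chr11:69393861-69405375, plus strand, mm9) had 346.9, 351.2 and 358.4 CPM in the cisplatin libraries, against 364.4, 359.3 and 404.3 CPM in the control libraries. The cisplatin values were the lower ones by a small margin, and control replicate 3 stood above the rest. The log2 fold change was -0.09 ± 0.05 (SE, adjusted p = 0.164), so a change of the p53 transcript was not called. A second RefSeq transcript of Trp53, NM_011640, had 98.6% of the counts of the one used, so the pair cannot be separated in these tables. A pseudogene, Trp53-ps, is annotated on chromosome 17, and the deposited expression counts of Trp53 were 1.13 times the counts of the authors' second, abundance table in both assays.

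The ubiquitin ligase genes did not move as a block. Mdm2 (NM_010786, chr10:117125944-117147814, minus strand), the main ligase of p53, had 221.8, 262.8 and 297.2 CPM with cisplatin, against 121.5, 109.1 and 89.5 CPM in controls. All cisplatin libraries exceeded all control libraries, and the mean was 2.44-fold higher, a log2 fold change of 1.29 ± 0.11 (SE, adjusted p = 7.37e-07). Mdm4 (NM_008575, chr1:134886422-134921943, minus strand) encodes the relative of MDM2 that binds p53 and blocks its transactivation. It had 148.7, 153.3 and 153.4 CPM with cisplatin, against 117.0, 105.2 and 80.8 CPM in controls, a rise of 0.59 ± 0.10 on the log2 scale (SE, adjusted p = 0.000244). The cisplatin libraries agreed closely for Mdm4 and the spread lay in the controls. A pseudogene, Mdm4-ps, is annotated on chromosome X, and the mRNA expression table held 1.14 times as many Mdm4 counts as the abundance table.

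Rchy1 (NM_026557, chr5:92377930-92392094, minus strand) encodes PIRH2, a RING ligase that p53 induces and that ubiquitinates p53. Its values were 48.3, 48.9 and 51.4 CPM with cisplatin, against 42.2, 38.3 and 39.4 CPM in controls, a rise of 0.31 ± 0.07 (SE, adjusted p = 0.00275), the smallest called rise among the members. Rfwd2 (NM_011931, chr1:161162457-161277711, plus strand) encodes COP1, another RING ligase of p53. It was the only member that fell: 39.3, 40.3 and 38.8 CPM with cisplatin, against 57.7, 53.5 and 54.4 CPM in controls, a log2 fold change of -0.48 ± 0.07 (SE, adjusted p = 6.23e-05). For Rfwd2 the mRNA expression table held 1.88 times as many counts as the abundance table, the largest such ratio among the members, and the fold change from the abundance table was -0.41 (adjusted p = 0.00158). No source used here states the reason for the gap between the deposited tables.

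Ppm1d (NM_016910, chr11:85124746-85160568, plus strand) encodes WIP1, the phosphatase that removes damage-induced phosphates from p53 and from the kinases upstream of it. Cisplatin libraries held 51.6, 55.3 and 57.3 CPM of Ppm1d, against 37.0, 31.7 and 27.5 CPM in control libraries. The rise was 0.78 ± 0.09 (SE, adjusted p = 1.87e-05). Ccng1 (NM_009831, chr11:40562054-40568813, minus strand) encodes cyclin G1, which recruits a phosphatase to MDM2. Its values reached 562.1, 592.0 and 658.8 CPM with cisplatin, against 298.6, 308.8 and 212.5 CPM in controls, a 2.21-fold difference of means and a log2 fold change of 1.14 ± 0.10 (SE, adjusted p = 1.92e-06).

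Trp53inp1 (NM_001199105, chr4:11083578-11101526, plus strand) encodes a p53-induced nuclear protein that promotes p53's proapoptotic activity, so among the members its product is an activator. It had 442.3, 525.7 and 583.3 CPM with cisplatin, against 215.6, 201.1 and 148.4 CPM in controls, a log2 fold change of 1.46 ± 0.11 (SE, adjusted p = 5.94e-07). Ptp4a3 (NM_008975, chr15:73553575-73589196, plus strand) encodes PRL-3, a phosphatase that p53 induces and that has been linked to lowering of p53. Its values were 90.4, 110.4 and 108.5 CPM with cisplatin, against 36.9, 35.9 and 31.6 CPM in controls. This was the largest change among the members, 2.96-fold between means and 1.57 ± 0.09 on the log2 scale (SE, adjusted p = 9.09e-08), at rank 254 of 14083 genes by log2 fold change. Both of these genes had further transcripts with nearly the same reads: the second Trp53inp1 entry held 99.5% of the counts of the first, and of the other 3 Ptp4a3 entries 2 held 99.6% and 99.5% and NM_001166390 held 51.6%. NM_001166390 had 1930 counts over the cisplatin libraries and 655 over the control libraries.

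The libraries of a group were ordered alike for most members. Cisplatin replicate 1 (8.3.3) had the lowest cisplatin value for 8 of 9 members, all but Rfwd2, and cisplatin replicate 3 (8.5.3) the highest for 7. Among controls, replicate 3 (8.6.16) was lowest for 6 members, which were Mdm2, Mdm4, Ppm1d, Ccng1, Trp53inp1 and Ptp4a3, and it was the highest for Trp53. In the RNAome libraries of the same codes, cisplatin replicate 1 was lowest for 5 members and control replicate 3 for 6. The 30 other p53 target genes summed to 2135, 2345 and 2452 CPM in cisplatin replicates 1, 2 and 3, against 1415, 1427 and 1235 CPM in control replicates 1, 2 and 3. Thus the same 2 libraries were lowest in that sum within their groups. How many of all tested genes follow this order was not counted, so whether it is particular to these genes was not tested.

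In mRNA sequencing, per kb of the longest annotated coding transcript, Trp53 was the highest member in both groups, at 188.6 ± 3.14 CPM per kb with cisplatin and 201.4 ± 13.2 CPM per kb in controls (SD, n = 3 each). With cisplatin, Ccng1 followed at 172.1 ± 14.1 CPM per kb, and its range overlapped that of Trp53, whereas in controls it stood at 77.8 ± 15.1 CPM per kb, well below. Trp53inp1 and Mdm2 came next, at 95.7 ± 13.1 and 83.2 ± 12.1 CPM per kb with cisplatin and at 34.9 ± 6.54 and 34.1 ± 5.16 CPM per kb in controls, with overlapping ranges in both groups. In controls the range of Mdm2 also overlapped that of Mdm4, at 28.9 ± 5.29 CPM per kb, but with cisplatin Mdm4 stood apart at 43.5 ± 0.76 CPM per kb. Ptp4a3 was the lowest of the 9 in controls, at 9.14 ± 0.75 CPM per kb, and sixth with cisplatin, at 27.1 ± 2.90 CPM per kb, overlapping Rchy1 at 25.2 ± 0.83 CPM per kb. Ppm1d had 18.9 ± 1.00 CPM per kb with cisplatin and 11.1 ± 1.64 CPM per kb in controls, where it overlapped Rfwd2. Rfwd2 was the lowest with cisplatin, at 7.80 ± 0.15 CPM per kb, against 10.9 ± 0.44 CPM per kb in controls. These levels use the expression counts, which for Rfwd2 were 1.88 times the abundance counts. Its place relative to Ptp4a3 and Ppm1d in controls may therefore depend on the table used. The order was not the same in RNAome sequencing. There Ccng1 was first with cisplatin, at 22.7 ± 2.53 CPM per kb, above Trp53 at 9.67 ± 0.76 and Trp53inp1 at 9.30 ± 0.87 CPM per kb, whose ranges overlapped. In the RNAome controls Trp53, at 9.51 ± 0.81 CPM per kb, and Ccng1, at 9.24 ± 2.22 CPM per kb, overlapped at the top.

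In RNAome sequencing, which does not select poly(A) RNA, 4 of 9 members rose and 0 fell, by edgeR. The 4 were Mdm2, Ccng1, Trp53inp1 and Ptp4a3, the same 4 that had the largest fold changes in mRNA sequencing. Among all 9978 genes tested, 0.972% rose and 1.07% fell. The median log2 fold change was 0.91 over the members and 0.00 over all genes. Values of the groups did not overlap for 6 members, the 4 called ones with Mdm4 and Ppm1d, and for 19.1% of all 9978 genes. At an unadjusted p under 0.05, 6 members rose and 0 fell, and 1378 genes of the table passed. DESeq2 called 4 members.

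**Figure D2:**
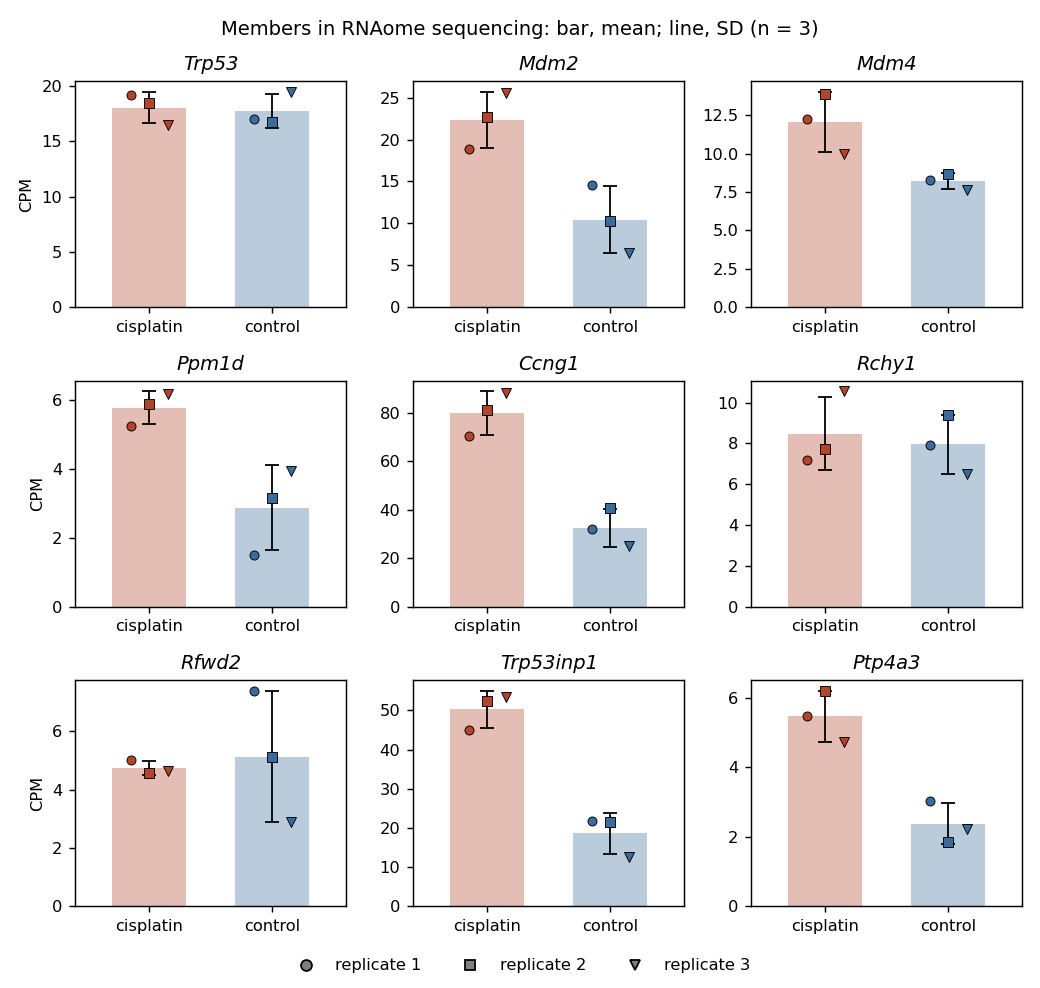
CPM of the 9 members in each RNAome sequencing library, drawn as for mRNA sequencing: cisplatin in red on the left, control in blue on the right, bars for means, lines for the SD of 3 libraries, symbols for replicates. The groups stand apart for Mdm2, Mdm4, Ppm1d, Ccng1, Trp53inp1 and Ptp4a3 and overlap for Trp53, Rchy1 and Rfwd2.

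Mdm2 had 18.9, 22.6 and 25.5 CPM in the cisplatin RNAome libraries, against 14.6, 10.2 and 6.50 CPM in the control libraries. The rise was 1.14 ± 0.22 (SE, adjusted p = 0.00709), and without control replicate 3, the library with the lowest Mdm2 value, it was 0.87 with an adjusted p of 0.0604. Ccng1 had 70.5, 80.9 and 88.2 CPM with cisplatin, against 31.9, 40.5 and 24.9 CPM in controls, a rise of 1.30 ± 0.19 (SE, adjusted p = 0.000874). Trp53inp1, at 44.9, 52.4 and 53.5 CPM with cisplatin against 21.7, 21.5 and 12.7 CPM in controls, rose by 1.44 ± 0.20 (SE, adjusted p = 0.000647) and ranked 54 of 9978 genes by log2 fold change. Ptp4a3, the member with the fewest counts here, had 5.48, 6.19 and 4.73 CPM with cisplatin, against 3.02, 1.86 and 2.24 CPM in controls. Its rise was 1.28 ± 0.24 (SE, adjusted p = 0.00606), and without cisplatin replicate 2 it was 1.17 with an adjusted p of 0.0609.

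The other members did not pass the test in RNAome sequencing. Ppm1d had 5.24, 5.88 and 6.18 CPM with cisplatin, against 1.51, 3.17 and 3.94 CPM in controls, from 291 counts over the cisplatin libraries and 79 over the controls. Its log2 fold change was 0.91 ± 0.25 (SE, adjusted p = 0.0673), close to its value in mRNA sequencing but with a larger SE, and its adjusted p was 0.0381 with no filter on low counts. Mdm4 had 211, 315 and 110 counts with cisplatin, against 44, 93 and 72 counts in controls, which scaled to 12.1 ± 1.97 CPM and 8.22 ± 0.50 CPM (SD, n = 3 each). Its cisplatin CPM values all exceeded the control ones, with a log2 fold change of 0.57 ± 0.17 (SE, adjusted p = 0.121). For Trp53, at 19.2, 18.5 and 16.5 CPM with cisplatin and 17.0, 16.8 and 19.5 CPM in controls, the log2 fold change was 0.02 ± 0.16 (SE, adjusted p = 0.97).

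Rchy1 and Rfwd2 had overlapping groups. Rchy1 ranged over 7.17, 7.74 and 10.5 CPM with cisplatin and 7.94, 9.41 and 6.50 CPM in controls, a log2 fold change of 0.07 ± 0.20 (SE, adjusted p = 0.934). Rfwd2 stood at 5.01, 4.55 and 4.64 CPM with cisplatin and at 7.37, 5.12 and 2.88 CPM in controls, where the shallow replicate 1 gave the highest value, and its log2 fold change was -0.05 ± 0.25 (SE, adjusted p = 0.966). A fall of the size seen for Rfwd2 in mRNA sequencing is about double that SE, so the RNAome data give little precision for it.

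Whether the response of a member differed between the assays was tested as an interaction over the 12 libraries. The difference, RNAome minus mRNA, passed the threshold for 0 of 9 members, and 0% of the 13070 genes tested passed (770 at an unadjusted p under 0.05). With the sample code as a block, 13 genes passed and again 0 members, and DESeq2 called 45 genes and 0 members. Without control replicate 1, 32 genes passed and 0 members. The estimates for Mdm2, Mdm4, Ppm1d, Ccng1 and Trp53inp1 lay between -0.12 and 0.15, with SE of 0.20 to 0.25. The largest was that of Rfwd2, 0.47 ± 0.23 (SE, adjusted p = 0.837, unadjusted p = 0.0485), followed by Rchy1 at -0.26 ± 0.19 and Ptp4a3 at -0.25 ± 0.26. So the fall of Rfwd2 was called in mRNA sequencing alone, but a difference between the assays was not shown.

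The tables also list genomic regions, most of which equal annotated introns, and counts on those inside the members are described here. Several of these regions overlap annotated exons of the member, and whether the reads come from unspliced RNA was not tested. Of 67 regions inside member genes, 63 were in the RNAome table, and 18 had enough counts to be tested there, in a fit of the whole table. Of these 5 rose and 0 fell, by edgeR, while 0.456% of all 11180 regions tested rose. The filter on low counts can pass a region through the libraries of 1 group alone, so these directions are not free of that selection. The smallest adjusted p was that of an intron of Mdm2 (chr10:117142286-117146755), the intron that begins about 1 kb into the gene, which overlaps an annotated alternative exon of the gene and had 73, 94 and 70 counts in the cisplatin libraries, against 6, 13 and 8 counts in the control libraries. Its log2 fold change was 2.20 ± 0.29 (SE, adjusted p = 0.00174). An intron of Ccng1 (chr11:40565860-40567309) had 21, 43 and 20 counts with cisplatin, against 1, 3 and 4 in controls, and rose by 2.39 ± 0.45 (SE, adjusted p = 0.0122). In Ptp4a3 the intron chr15:73582458-73584185 had 26, 51 and 14 counts with cisplatin, against 3 counts in each control library, and rose by 2.30 ± 0.46 (SE, adjusted p = 0.0166). The others were an intron of Trp53inp1 (chr4:11092595-11095043), which also overlaps an alternative exon, at 1.85 ± 0.41, and an intron of Mdm4 (chr1:134901299-134905713) at 0.98 ± 0.22. The Trp53inp1 intron had 4, 7 and 2 counts in controls. With so few control counts, the introns of Ccng1, Ptp4a3 and Trp53inp1 may have been tested only because of their cisplatin counts. The count of 5 did not hold under several alternatives. It was 1 with the middle code number as a replicate block and 3 with DESeq2. It was also 1 without cisplatin replicate 2, without control replicate 2 or without control replicate 3, and 3 without cisplatin replicate 1 or 3.

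Summing the intron counts of each gene, a step added after the data were seen, gave more counts per test. In mRNA sequencing 6 of 9 members rose and 0 fell by intron counts, by edgeR, against 7.41% of 7772 genes that rose. The rises were 1.92 ± 0.14 for Ptp4a3, 1.68 ± 0.13 for Trp53inp1, 1.59 ± 0.11 for Mdm2, 1.30 ± 0.16 for Ccng1, 0.98 ± 0.19 for Ppm1d and 0.88 ± 0.11 for Mdm4. In RNAome sequencing 5 rose and 0 fell, against 0.841% of 5469 genes that rose: Ptp4a3 by 2.31 ± 0.40, Mdm2 by 1.88 ± 0.20, Ccng1 by 1.87 ± 0.28, Trp53inp1 by 1.29 ± 0.24 and Mdm4 by 0.84 ± 0.20 (SE). For Mdm2 the intron counts were 169, 238 and 168 in the cisplatin RNAome libraries, against 22, 36 and 25 in the control libraries. Ptp4a3 had 33, 71 and 24, against 6, 4 and 3, so it may have passed the count filter through its cisplatin libraries alone. The Mdm4 call in RNAome sequencing (adjusted p = 0.024) was lost without any 1 of cisplatin replicates 1 and 2 or control replicates 2 and 3, at fold changes of 0.86, 0.72, 0.90 and 0.62. With introns that hold an annotated exon left out, Trp53inp1 in RNAome sequencing had 1.12 and an adjusted p of 0.0859. For Mdm2 the counts were then 65, 113 and 64 with cisplatin, against 13, 18 and 11 in controls (adjusted p = 0.0014 by edgeR). Ccng1, Ptp4a3 and Mdm4 also stayed under the threshold, Mdm4 at 0.0419. The intron chr1:134901299-134905713 held 66.2% of Mdm4 region counts in mRNA sequencing and 42.7% in RNAome sequencing. For Ptp4a3, chr15:73582458-73584185 held 69.5% and 66.2%. Both are regions already called above in RNAome sequencing.

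Intron counts of the remaining genes did not pass. Trp53 introns had log2 fold changes of -0.09 ± 0.10 in mRNA sequencing and 0.13 ± 0.23 in RNAome sequencing. For Rchy1 the values were 0.26 ± 0.19 and 0.40 ± 0.24, and Ppm1d in RNAome sequencing had 0.17 ± 0.35, from 64 counts over the cisplatin libraries and 30 over the controls. Rfwd2 introns had a log2 fold change of 0.04 ± 0.08 in mRNA sequencing, where its exon counts had fallen by 0.48. However, 98.6% of the counts on all regions inside Rfwd2 came there from a single intron, chr1:161219172-161236703. It had 20623 counts, against 3402 on the exons. Intron counts of that gene therefore describe that intron and little else in mRNA sequencing.

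**Figure D3:**
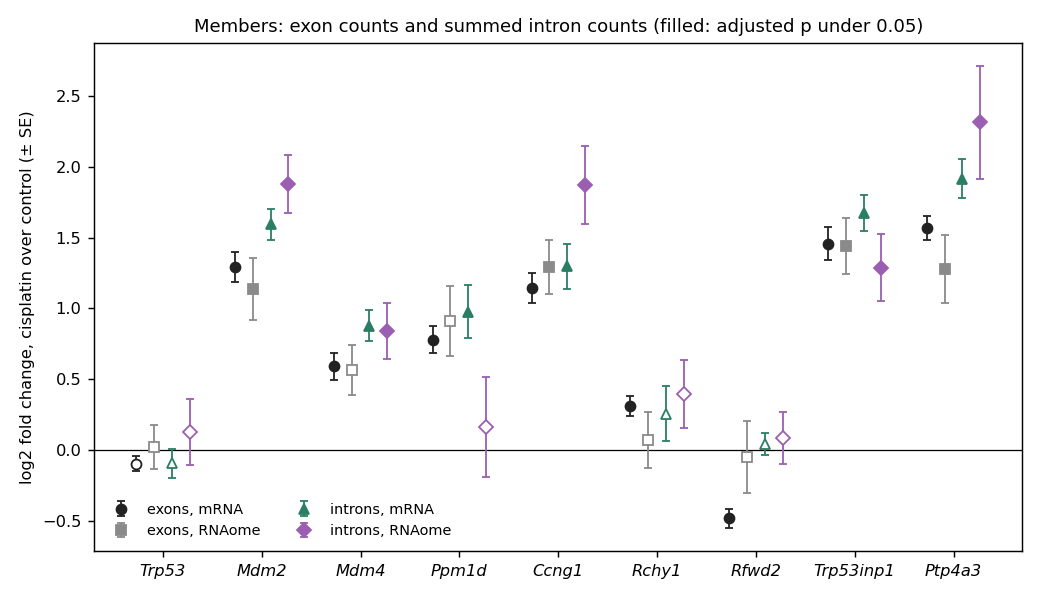
Log2 fold change of cisplatin over control, with its SE, for exon counts and summed intron counts of each member in both assays; filled symbols have an adjusted p under 0.05. Mdm2, Ccng1, Trp53inp1 and Ptp4a3 are filled in all 4 measures, and Trp53 in none.

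Along Mdm2, the intron signal was uneven. In RNAome sequencing the intron nearest the start that is in that table (161 bases, 0.893 kb into the gene at its middle) had 17 counts over the cisplatin libraries and 1 over the controls. The 523-base first intron, which holds the pair of p53-like sites shown above, was listed in the mRNA table alone, with 41 counts over the cisplatin libraries and 18 over the controls. In mRNA sequencing the intron with its middle at 14.5 kb had the highest cisplatin values per kb, from 4.38 to 5.60 CPM per kb, against 0.998 to 1.65 CPM per kb in controls. Each intron named here overlaps an annotated exon of Mdm2, so its counts may hold exon reads.

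**Figure D4:**
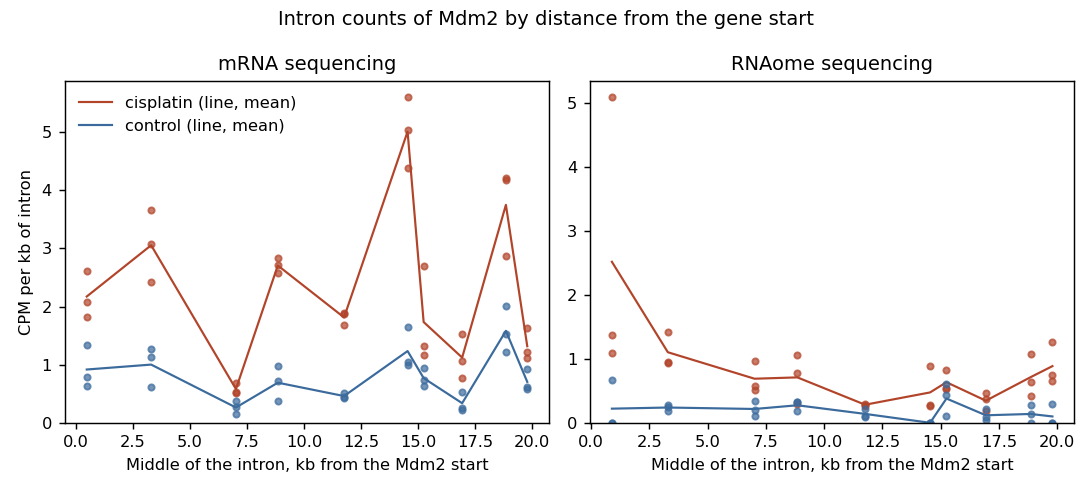
CPM per kb of each Mdm2 intron in the deposited tables, plotted at the distance of its middle from the annotated gene start, for mRNA sequencing and RNAome sequencing; points are libraries and lines join group means, with cisplatin in red and control in blue. The cisplatin line runs above the control line along the whole gene in both assays, and neither line is smooth. Several of the introns drawn overlap annotated Mdm2 exons.

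Other genes around p53 were counted by list. The lists, too, were chosen with earlier results of these data known, so their counts are descriptions. The background to every list is that 18% of all genes tested rose and 19.2% fell in mRNA sequencing. In RNAome sequencing 0.972% rose and 1.07% fell. Of 25 tested p53 ligases, deubiquitinases and adaptors outside the members, 5 rose and 12 fell in mRNA sequencing, with a median log2 fold change of -0.17. The 5, named after their values were seen, were Cul4a, Otub1, Siah1b, Syvn1 and Usp2. Those with the smallest adjusted p all fell: Trim24, a ligase of p53, by 0.66 ± 0.05, Huwe1, another, by 0.45 ± 0.04, and Ube2d3, a ubiquitin-conjugating enzyme, by 0.41 ± 0.05 (SE). In RNAome sequencing 0 of 23 rose and 1 fell by edgeR (1 and 6 at an unadjusted p under 0.05), with a median of -0.32. The one that fell was Fbxo11, an F-box gene named after its value was seen, at -1.05 ± 0.27 (SE, adjusted p = 0.0465). Trim24, Huwe1 and Ube2d3 stood at -0.69 ± 0.19, -0.25 ± 0.19 and -0.38 ± 0.15 there, and did not pass.

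Of 26 tested kinases and phosphatases of p53 and MDM2, 0 rose and 10 fell in mRNA sequencing by edgeR (2 and 12 at an unadjusted p under 0.05), with a median of -0.10. Prkdc, the DNA-dependent protein kinase, fell by 0.56 ± 0.07, Gsk3b by 0.46 ± 0.06 and Csnk2a1, a catalytic subunit of casein kinase II, by 0.36 ± 0.05 (SE). In RNAome sequencing 0 of 25 were called by edgeR (0 rose and 3 fell at an unadjusted p under 0.05), with -0.15 ± 0.16, -0.63 ± 0.23 and -0.07 ± 0.16 for these genes. Among 21 acetylation and methylation enzymes of p53, 1 rose, Ing4, and 12 fell in mRNA sequencing, with a median of -0.19. Kat2b, the acetyltransferase PCAF, fell by 0.83 ± 0.07, Sirt1, a p53 deacetylase, by 0.45 ± 0.06 and Ehmt1, a methyltransferase, by 0.48 ± 0.06 (SE). In RNAome sequencing edgeR called 0 of the 21 (0 rose and 2 fell at an unadjusted p under 0.05), and the 3 named stood at -0.65 ± 0.21, -0.51 ± 0.16 and -0.12 ± 0.18. 

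Of 28 tested p53 relatives, binding partners and MDM2 inhibitors, 6 rose and 5 fell in mRNA sequencing, with a median of 0.01. These counts are near the shares over all genes tested, of which 18% rose and 19.2% fell. Trp73, which encodes the p53 relative p73, had the smallest adjusted p and rose by 2.64 ± 0.17, Ppp1r13b, encoding the p53 partner ASPP1, by 0.77 ± 0.09, and Ncl, nucleolin, fell by 0.29 ± 0.04 (SE). The other 4 that fell, named after their values were seen, were Npm1, Rrn3, Trp53bp1 and Yy1. Trp73 was not tested in RNAome sequencing, where 0 of 25 were called by edgeR (0 rose and 2 fell at an unadjusted p under 0.05) and Ppp1r13b and Ncl had 0.64 ± 0.51 and -0.62 ± 0.27. Of 30 tested p53 target genes outside the members, 25 rose and 0 fell in mRNA sequencing by edgeR (26 and 0 at an unadjusted p under 0.05), with a median of 0.81. In RNAome sequencing 13 of 27 rose and 0 fell by edgeR (16 and 0 unadjusted), with a median of 0.81. Pidd1, which encodes a death domain protein, rose by 1.29 ± 0.08 in mRNA sequencing and had 0.48 ± 0.28 in RNAome sequencing (SE, adjusted p = 0.496), where Plk2 and Btg2, a kinase gene and an antiproliferative gene, rose by 2.44 ± 0.23 and 2.19 ± 0.22. The median of the members in mRNA sequencing, 0.78, was close to that of this target list.

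**Figure D5:**
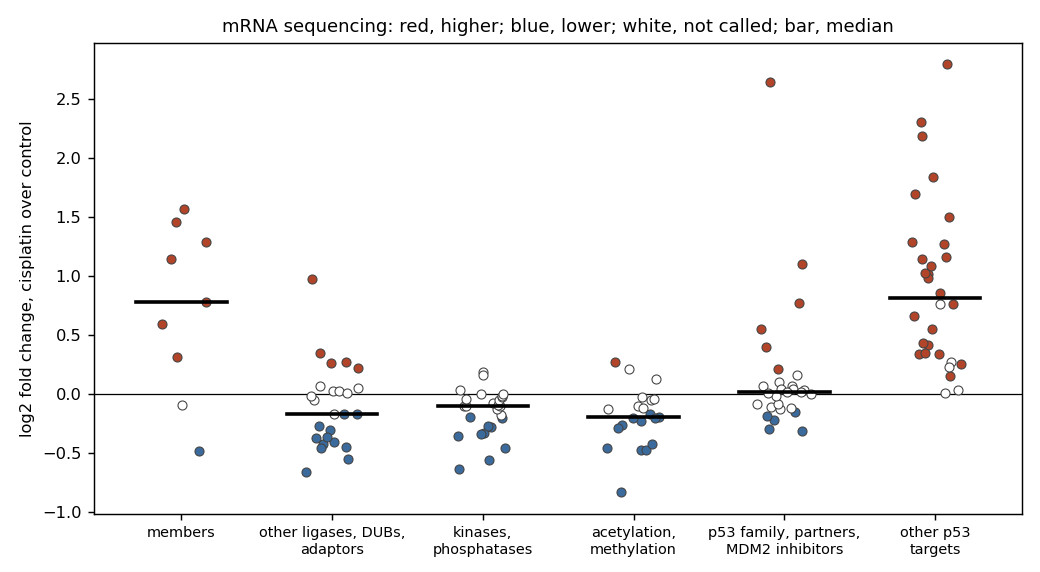
Log2 fold change of cisplatin over control in mRNA sequencing for the 9 members and the tested genes of 5 lists around p53; each point is a gene, red where it rose, blue where it fell, white where it was not called, and the bar is the median. The members and the other p53 targets lie mostly above 0, with medians of 0.78 and 0.81, and the ligase, kinase and acetylation lists have medians of -0.17, -0.10 and -0.19.

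By the Euclidean distance of log2 CPM, centred on the control mean of each assay, over the 12 libraries and among 6925 genes, the pattern most like that of Mdm2 was that of Wdr35, a cilium transport gene, at a distance of 0.52. It was followed by Notch3, a Notch receptor gene, at 0.54, Pdrg1, a gene named for its regulation by p53 and DNA damage, at 0.61, Arl8a, a lysosomal small GTPase gene, at 0.63 and Slc27a3, a fatty acid transporter family gene, at 0.68, beside a median of 3.27 over all candidates. These 5 genes had log2 fold changes of 1.07 to 1.36 in mRNA sequencing and 1.06 to 1.38 in RNAome sequencing. The distance itself picks genes with changes near those of Mdm2, so these values are not separate evidence. The patterns most like that of Trp53 were those of Topbp1, a checkpoint adaptor gene, Ppp2r1b, a phosphatase scaffold gene, Bap1, a deubiquitinase gene, Stip1, a cochaperone gene, and Hdlbp, an RNA-binding protein gene, at distances of 0.18 to 0.19 beside a median of 0.78, with log2 fold changes of -0.12 to -0.07 in mRNA sequencing. Few changes set the Trp53 pattern, so many flat genes lie close to it.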

How the data were processed

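RNA was measured in 12 libraries of mRNA sequencing and RNAome sequencing, 3 per treatment and assay. All values used are whole-number read counts as deposited by the authors, without normalization. Per the submitters' processing notes, Bowtie, TopHat and edgeR were used with genome build mm9; no source used here gives versions, the counting rule, strand use or filters. Each assay has an expression table, used here, and an abundance table, used as an alternative. Total counts per library were 20365963 to 31604098 in the mRNA and 43404675 to 94373096 in the RNAome expression table.

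RefSeq entries were given symbols through a gene table of GRCm38.p6, used for names alone (18274 of 18943 matched in mRNA, 17133 of 17787 in RNAome). Of each gene 1 entry was kept, with preference for entries present in both assays and then for the highest mean CPM. Gene coordinates are from GENCODE vM1 on NCBIM37, the assembly of mm9. Genes were tested in R 4.3.3 with edgeR 4.0.16 (two-sided quasi-likelihood test after TMM scaling and filterByExpr, with p adjusted by Benjamini-Hochberg over all genes and a threshold of 0.05), and the fits were tested on simulated data. SE is the size of the log2 change over the square root of its F statistic. DESeq2 1.42.0, other scaling, filters, tables, blocks and leaving out libraries were alternatives.

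Named genes were all 9 members, the 3 genes of each list with the smallest adjusted p in mRNA sequencing, and the 5 nearest patterns to Mdm2 and Trp53 (log2 of CPM plus 0.5, with mean log2 CPM of at least 3 in mRNA and 1 in RNAome). The members and lists were chosen with earlier results of these data known. No member exon overlaps an exon of another GENCODE vM1 gene. Pseudogenes Trp53-ps and Mdm4-ps are annotated, so counts of Trp53 and Mdm4 may be split or shared with them. The same sample codes occur in both assays, and the deviations of same-coded libraries from their group means correlated at 0.08 to 0.31 over 9825 genes. Libraries of different codes correlated at -0.20 to 0.12, so the lowest same-code value, that of control replicate 1, lies within that range. Small RNA tables were not used here.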

Additional observations from a re-analysis of the deposited data

How the results depend on the processing

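In mRNA sequencing all 108 alternative values of the 9 members kept their direction and their side of the threshold, and 7 rose and 1 fell under every alternative run. In RNAome sequencing 98 of the 108 did. Ppm1d was called there with no filter (0.91) and with the replicate block by the middle code number (1.34). Leaving out 1 library gave ranges that cross 0 for uncalled RNAome fold changes: Trp53 -0.024 to 0.098, Rchy1 -0.096 to 0.23 and Rfwd2 -0.35 to 0.23. Genes called in the whole RNAome table numbered 204, and 78 to 197 with 1 library left out. For the difference between assays, 0 genes passed, 45 with DESeq2, 13 with the sample code as a replicate block and 0 to 32 with 1 sample left out. The Trp53inp1 difference was 0.0045 with that block, and leaving out 1 sample gave -0.13 to 0.11 for Mdm4, -0.057 to 0.12 for Trp53inp1 and -0.18 to 0.49 for Ppm1d. Regions called inside members numbered 5, 3 with DESeq2, 8 with no filter, 1 with the replicate block and 1 to 5 with 1 library left out. Summed intron changes crossed 0 with 1 library left out for Trp53 in mRNA sequencing (-0.18 to 0.0086) and for Ppm1d (-0.13 to 0.65) and Rfwd2 (-0.00056 to 0.15) in RNAome sequencing. The cause of these changes was not tested.

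The middle number of the codes occurs in both treatments. Samples that share it (8.4 and 8.5) deviated at correlations of 0.15 and 0.17 in mRNA sequencing and -0.11 and 0.13 in RNAome sequencing. So few values cannot show whether such samples were paired, and the number was not taken as a pairing. The block left the count of called members at 8 in mRNA sequencing and gave 5 in RNAome sequencing. All genes called went from 5235 to 6405 in mRNA and from 204 to 182 in RNAome sequencing with it. Member counts were lower in RNAome sequencing and its libraries also varied more (common biological coefficient of variation 0.156, against 0.0605 in mRNA sequencing); these were not separated.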
